A study of Drosophila melanogaster with 62 samples.

Results

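The libraries described here came from Drosophila melanogaster embryos in which HDAC6 had been knocked down, collected at stage 5, and from their controls. They were chosen by sample title: 2 libraries of HDAC6 knockdown and 4 controls of the set that the labels call batch1, so 6 of the 62 libraries of the series. Each library held total RNA from 20 embryos sorted by hand. Stage 5 is the cellular blastoderm, when the embryo's own genome is widely transcribed, and stage 2, used for comparison below, precedes most of that transcription. The library names give the cross as T344xN174 for the HDAC6 knockdown, T180xN174 for the controls and T337xN174 for the Enok knockdown of the same set. Every group of the set therefore shared the parent N174, while each knockdown had a second parent of its own, so that the knockdown and the line cannot be told apart against these controls. By the library names, controls 1 and 4 were Ctrl-KD and controls 2 and 3 were CtrlAc-KD, terms that the labels do not explain. The labels do not give the driver, the hairpin or the age of the mothers.

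HDAC6 is a class II lysine deacetylase that is mostly cytoplasmic. It carries tandem catalytic domains and a zinc finger that binds ubiquitin, and it is best known for removing acetyl groups from alpha-tubulin and, in other species, from cortactin and Hsp90. Through its ubiquitin-binding domain it takes part in moving misfolded protein to the aggresome and in autophagy. Its name places it among histone deacetylases, but its known substrates lie mainly outside chromatin.

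The knockdown libraries had 7.64 M and 11.8 M counts and the controls between 3.57 M and 23 M. HDAC6 knockdown library 2 has stage 5 in its title and stage 2 in other fields. Blastoderm markers (Kr, kni, eve, ftz, sna, twi, zen and sog) summed to 1308 CPM (counts per gene, scaled to a library of fixed size) in that library and 1463 in the other, against 1356 to 1640 in the stage 5 controls and at most 2.86 in the stage 2 libraries of control and HDAC6 knockdown. Its markers were thus at the stage 5 level, and the title was followed. The knockdown libraries were less alike than the controls: the median absolute log2 difference between them was 0.28, against 0.174 to 0.235 for pairs of controls. Embryos are mixtures of cells, and fewer cells of a type cannot be told apart from less RNA per cell in any result below.

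The HDAC6 transcript fell but was not lost at stage 5. HDAC6 (FBgn0026428, chromosome X, 15333310 to 15340360, plus strand, dm6) measured 68.0, 83.3, 75.5 and 92.9 CPM of the scaled library in controls 1 to 4, and 25.5 and 31.5 CPM in the knockdown. All 4 controls lay above both knockdown libraries, and the level was 2.78-fold lower. The log2 change was -1.48 ± 0.16 (standard error here and below, edgeR quasi-likelihood test, Benjamini-Hochberg adjusted p = 0.00101), and the Enok knockdown, with 77.4 and 73.1 CPM, lay within the controls. An antisense RNA, asRNA:CR44998, shares a fraction of 0.211 of its exons, and whether counting used strand is not given in the sources used here.

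At stage 2, before most zygotic transcription, the reduction was deeper. On a scale common to all total RNA libraries, HDAC6 stood at 193 ± 31.8 CPM (SD, n = 3) in stage 2 controls and at 1.53 ± 0.581 CPM (SD, n = 2) in the stage 2 knockdown. By stage 5 the controls had 77.6 ± 9.85 CPM (SD, n = 4) and the knockdown 27.7 ± 4.55 CPM (SD, n = 2). The knockdown thus held more HDAC6 transcript at stage 5 than at stage 2, while the controls held less. The log2 change was -6.96 ± 0.27 at stage 2 (edgeR adjusted p = 7.2e-08), and the effect at stage 5 minus that at stage 2 was 5.51 ± 0.32 (edgeR adjusted p = 1.3e-07). In the other groups at stage 5 the mean lay between 52.2 CPM without Gcn5 and 97.7 CPM in the wild-type Gcn5 rescue, so no other group was as low as the HDAC6 knockdown.

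**Figure D1:**
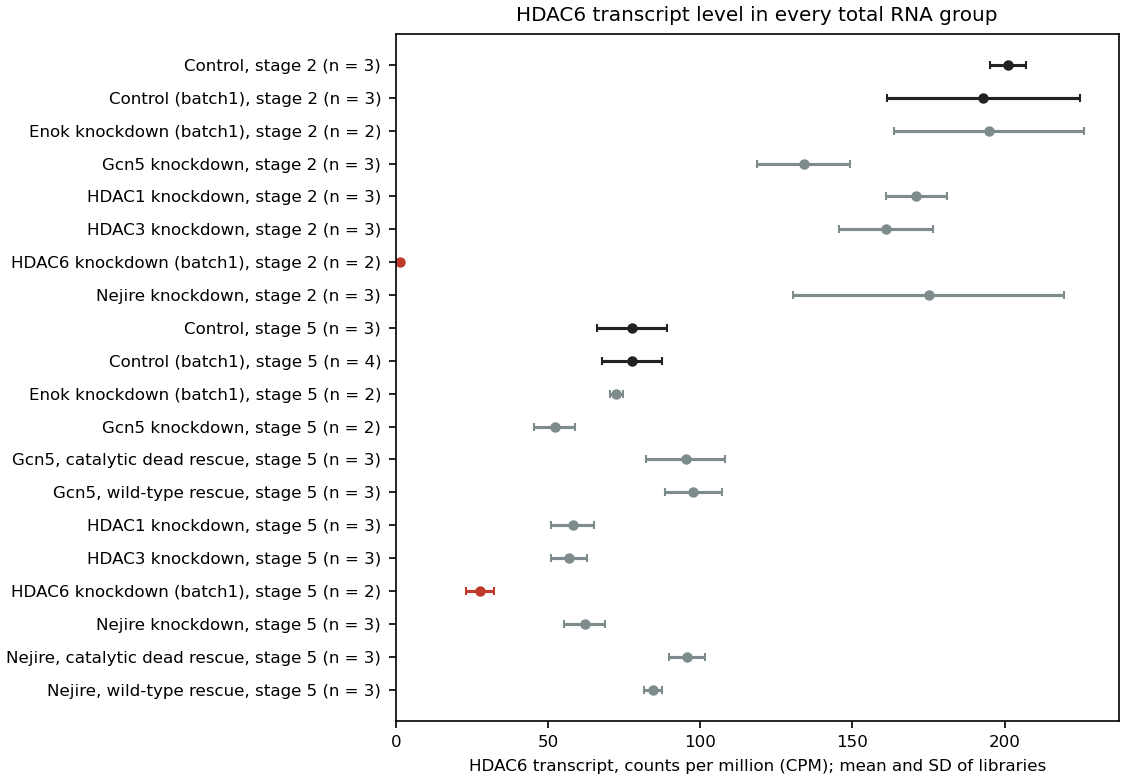
Mean HDAC6 transcript level in CPM on a scale common to all total RNA libraries (horizontal axis, starting at 0) for each group and stage (vertical axis), with SD bars and the number of libraries. The HDAC6 knockdown groups (red) stand at 1.53 CPM at stage 2 and 27.7 CPM at stage 5, below every other group of their stage.

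The comparison called 116 transcripts, HDAC6 among them. Of 8162 genes tested at stage 5, 116 passed (1.42%), of which 68 were higher in the knockdown (0.833%) and 48 lower (0.588%). A change of at least 2-fold was fitted for 28 of the rises and 29 of the falls, and one of more than 4-fold for 16 and 9. The libraries of both groups did not overlap for any of the 116, and the same held for 22.3% of all genes tested. Genes known only by an identifier made up 32 of the 116, and 5 of the 116 were noncoding. The count depended on single libraries: it was 344 without knockdown library 1, 262 without knockdown library 2, and 61, 46, 212 and 76 without controls 1 to 4 in turn. In all 6 of these fits 39 genes passed in the same direction, 23 higher and 16 lower. Against Ctrl-KD controls alone 19 genes passed, and against CtrlAc-KD controls alone 27. In the comparison with all 4 controls, 1242 of the 8162 genes (15.2%) had an unadjusted p under 0.05, and DESeq2 called 282.

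**Figure D2:**
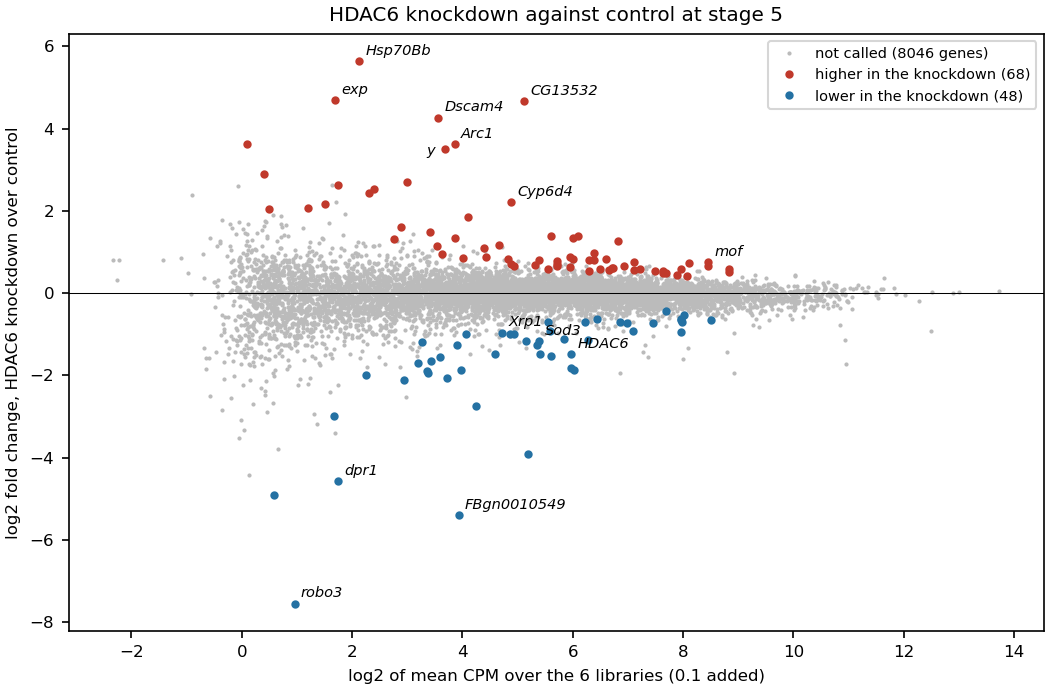
Log2 fold change of HDAC6 knockdown over control at stage 5 (vertical axis) against the log2 of the mean level in CPM over the 6 libraries, with 0.1 added (horizontal axis), for 8162 genes. Red points are the 68 genes higher in the knockdown, blue points the 48 lower, and the labelled genes are described in the text. The plotted value of robo3, which had no count in the knockdown, depends on the small prior added to counts.

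The largest rises were in genes of unlike function. Hsp70Bb, a copy of the heat-inducible Hsp70 chaperone, measured 0.172, 0.135, 0.349 and 0 CPM in the controls and 5.49 and 19.6 CPM in the knockdown (log2 5.65 ± 0.58, edgeR adjusted p = 0.00101). The Hsp70 copies are nearly identical, so reads may have been split among them. The other copies that were tested, Hsp70Ab and Hsp70Ba, did not pass, at log2 0.21 ± 0.73 and -0.11 ± 0.56. On the common scale at stage 5 Hsp70Bb was also high without Nejire (27.7 CPM), without Enok (21.6) and in the Nejire rescues (15.9 and 15.8). It had 12.2 CPM without HDAC6, 6.1 without HDAC3, 4.95 without HDAC1 and 0.751 without Gcn5. The Gcn5 rescues had 0.0896 and 0.0252 CPM, and the batch1 and main controls 0.161 and 0.193. expansion (exp), which is known for limiting the size of tracheal tubes, had at most 0.677 CPM in any control and 9.91 and 7.78 CPM in the knockdown (log2 4.69 ± 0.62, edgeR adjusted p = 0.00447).

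Dscam4, a cell surface protein of the immunoglobulin superfamily and a paralogue of the neuronal recognition gene Dscam1, measured 1.89, 2.17, 1.22 and 1.67 CPM in the controls and 29.1 and 34.1 CPM in the knockdown. The groups were far apart, with a log2 change of 4.27 ± 0.22 (edgeR adjusted p = 6.3e-06), the lowest p of the comparison. The same gene was high in every knockdown and rescue group of the series. On the common scale the 10 knockdown and rescue groups at stage 5, the HDAC6 knockdown among them, had means of 26.3 to 41.7 CPM, and both control groups 0.642 and 1.69 CPM. At stage 2 the 6 knockdown groups had 16.9 to 20.0 CPM and both control groups had no count.

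Arc1, which forms virus-like capsids that carry its own RNA between cells, measured 2.24, 4.6, 2.14 and 3.63 CPM in the controls and 45 and 28.8 CPM in the knockdown (log2 3.62 ± 0.30, edgeR adjusted p = 0.00026). On the common scale at stage 5 Arc1 had 35.8 CPM without HDAC6. The Nejire rescues had 158 and 182 CPM and the Gcn5 rescues 42.6 and 51.7. Arc1 had 19.6 CPM without Enok, 19 without Nejire, 16.5 without HDAC3, 11.9 without HDAC1 and 5.76 without Gcn5. The batch1 and main controls had 3.06 and 2.16 CPM. yellow (y), needed for black cuticle pigment and widely used as a visible marker in fly stocks, had 2.30 to 3.19 CPM in the controls and 20.9 and 44.2 CPM in the knockdown (log2 3.51 ± 0.32, edgeR adjusted p = 4.0e-04). Among 4 genes on a list of stock markers that could be tested, y alone passed. white (w), rosy (ry) and brown (bw) had log2 changes of -0.18 ± 0.47, -0.49 ± 0.16 and 0.48 ± 0.88 without passing. Outside this set, y stood at 137 CPM without Gcn5, 9.51 without HDAC1 and 5.17 without Nejire at stage 5 on the common scale, and at 2.22 CPM in the main controls.

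Cyp6d4, a cytochrome P450, rose from 15.1, 13, 12.8 and 12 CPM to 79.0 and 45 CPM (log2 2.22 ± 0.24, edgeR adjusted p = 0.00101). Of 26 genes on the detoxification list that could be tested, 2 rose and none fell, with a list median of -0.07. The other was GstE11, a glutathione S-transferase, which had 11.5 to 14.1 CPM in the controls and 24.5 and 21.4 CPM in the knockdown. GstT3, a further glutathione S-transferase that was not on the list, rose from 32.6 to 52.5 CPM in the controls to 122 and 92.2 CPM (log2 1.34 ± 0.18). The call for GstE11 was lost without knockdown library 1 or without control 1, 2 or 4.

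The remaining leading rises with a gene name were nompC, a mechanosensitive channel (log2 2.17 ± 0.45), Rab32, a GTPase of pigment granules and lysosome-related organelles (1.86 ± 0.38), PolD2, a subunit of DNA polymerase delta (1.5 ± 0.29), l(3)72Dp (1.28 ± 0.15) and c(3)G, which spans the synaptonemal complex (1.17 ± 0.20). Rab32 had 52.3 CPM in knockdown library 1, 15.0 in library 2 and 7.25 to 11.3 in the controls, and against the 3 main controls, which belong to another set, its change was -1.84. PolD2 was even between the libraries, at 15.4 and 21.1 CPM against 4.58 to 8.92. Of the 12 largest named rises 8 passed whichever library was left out, and the exceptions were Rab32, nompC, PolD2 and c(3)G.

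Among rises, 3 genes with an identifier but no name that passed in every alternative lay outside the rule for named genes and were chosen after their values were seen. CG13532 had 7.40, 2.17, 1.57 and 6.97 CPM in the controls and 90.6 and 100.0 CPM in the knockdown (log2 4.67 ± 0.43, edgeR adjusted p = 4.0e-04). CG30159 had 2.41 to 3.35 CPM and 18.4 and 17.8 CPM (log2 2.71 ± 0.21, edgeR adjusted p = 2.2e-04), and CG10877 had 27.4 to 33.7 CPM and 81.6 and 83.2 CPM (log2 1.40 ± 0.12, edgeR adjusted p = 4.0e-04). For each of the 3 the knockdown libraries agreed closely while every control lay far below. Together with Arc1, Dscam4, y, HDAC6 and the noncoding snRNA:U2:34ABa, these were the 8 genes that passed in every one of 16 alternative fits, 6 of them rises.

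The following genes rose by less than 2-fold and were picked after their values were seen, with no list or count behind the choice. varicose (vari), a scaffold of septate junctions, rose from 60.4 to 64.4 CPM in the controls to 133 and 115 CPM (log2 0.99 ± 0.10). LManII, a lysosomal mannosidase, had 214 to 235 CPM in the controls and 377 and 376 CPM in the knockdown (log2 0.73 ± 0.09). Ras85D, the fly Ras, had 340 to 410 CPM and 541 and 632 CPM (log2 0.60 ± 0.10). Sar1, the GTPase of COPII vesicles, Ykt6, a SNARE, and EMC7 and EMC8-9, subunits of the endoplasmic reticulum membrane complex, rose by log2 0.68, 0.62, 0.65 and 0.55.

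**Figure D3:**
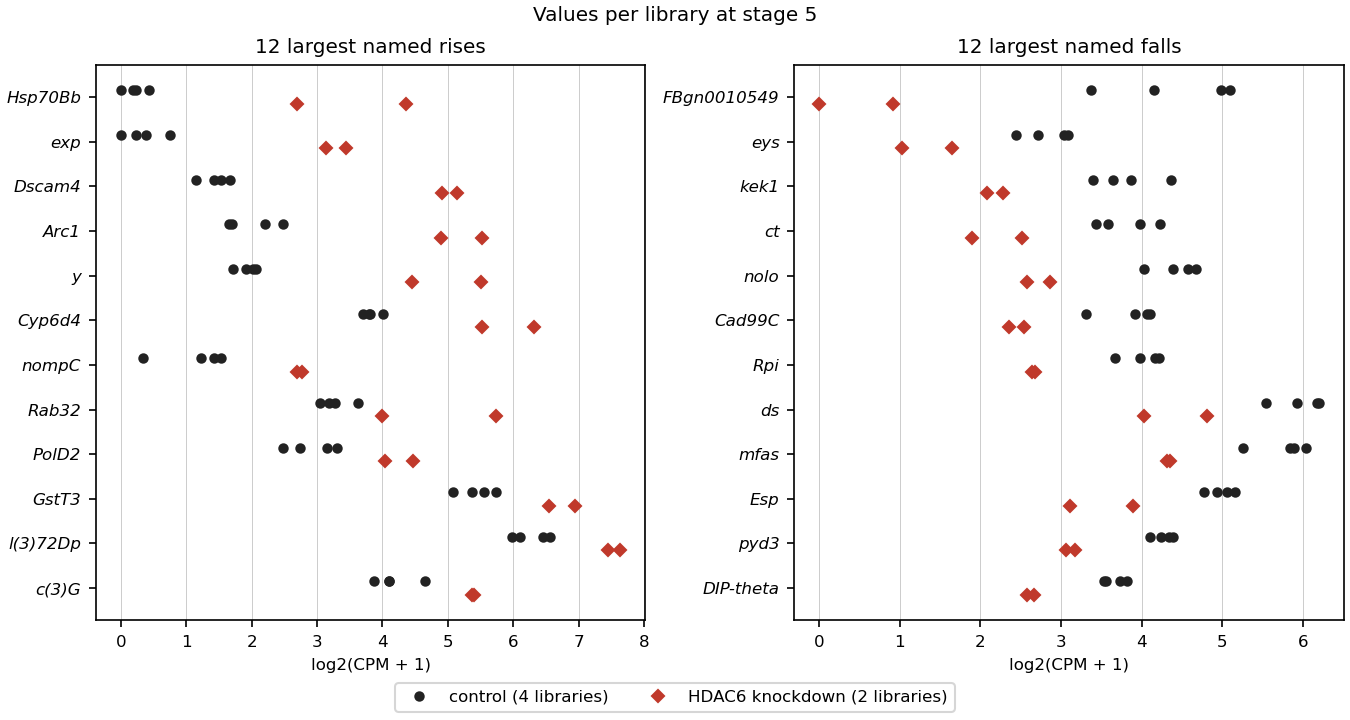
Level of each gene in each library at stage 5, as log2(CPM + 1) (horizontal axis), for the 12 largest named rises (left) and falls (right). Genes were eligible if they passed, the higher group reached a mean of 5 CPM and the groups did not overlap. The 4 controls (black circles) and the 2 knockdown libraries (red diamonds) are thus separate for every gene by this rule. For Hsp70Bb and Rab32 the knockdown libraries lie far apart.

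Among named genes with at least 5 CPM in the controls, the largest fall was in a gene on chromosome 2R, FBgn0010549, which encodes a transporter of the ABC family. It had 9.30, 30.7, 33.1 and 16.7 CPM in the controls and 0 and 0.882 CPM in the knockdown (log2 -5.39 ± 0.76, edgeR adjusted p = 0.00618). In the Enok knockdown it had 0.23 and 0 CPM, and so was nearly without counts in both knockdowns of this set. robo3, a receptor for the guidance cue Slit, had 1.09 to 3.61 CPM in the controls and no count in either knockdown library, which makes it at least 13.6-fold lower (floor of 3 counts over the group), although all its levels were low.

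The other named falls came from several functions, and no list of them was tested. kekkon 1 (kek1), a transmembrane inhibitor of Egfr, fell from 11.5, 19.6, 13.6 and 9.48 CPM to 3.22 and 3.85 CPM (log2 -1.95 ± 0.31, edgeR adjusted p = 0.0127). dachsous (ds), the giant cadherin that acts as ligand of Fat in planar polarity, fell from 45.4 to 72.2 CPM in the controls to 15.3 and 27.1 CPM (log2 -1.52 ± 0.25). midline fasciclin (mfas), an adhesion protein, fell from 37.1 to 64.7 CPM to 18.9 and 19.3 CPM (log2 -1.49 ± 0.22), a change that was 0.42 against the main controls. Falls were also measured for eys, an extracellular proteoglycan (log2 -1.99 ± 0.41), nolo, an ADAMTS-like protein of the matrix (-1.87 ± 0.24), and Cad99C, a protocadherin of microvilli (-1.65 ± 0.27). The remaining named falls were cut (ct), a homeodomain transcription factor (-1.88 ± 0.34, and 0.09 against the main controls), Rpi, an isomerase of the pentose phosphate pathway (-1.54 ± 0.27), Esp, a sulfate transporter (-1.48 ± 0.23), and pyd3, of pyrimidine breakdown (-1.25 ± 0.19). Of the 12 largest named falls 6 passed whichever library was left out, and the exceptions were ct, eys, Cad99C, Rpi, DIP-theta and ds.

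On a list of Dscam and other adhesion genes, 1 rose and 2 fell of 13 tested, with a list median of -0.29 against 0 for all genes tested. The rise was Dscam4. The falls were dpr1, an immunoglobulin protein of the Dpr family that pairs with DIP proteins in synaptic recognition, and DIP-theta, a member of that partner family. dpr1 had 3.10, 7.58, 6.02 and 2.51 CPM in the controls and 0.134 and 0.241 CPM in the knockdown (log2 -4.57 ± 0.67, edgeR adjusted p = 0.00801). On the common scale at stage 5 its mean was 0.183 CPM without HDAC6, 0.195 without HDAC1, 0.129 without HDAC3 and 0.0829 without Nejire. It was 0 without Gcn5 and at most 0.0876 in the Nejire and Gcn5 rescues. The mean was 1.96 CPM without Enok, and 4.69 and 1.85 in the batch1 and main controls. DIP-theta had 10.6 to 13.1 CPM and 5.36 and 4.97 CPM (log2 -1.19 ± 0.22, edgeR adjusted p = 0.0234), and its call was lost without knockdown library 2 or without control 1 or 2 and turned to 0.14 against the main controls. Dscam1 and Dscam2 had log2 changes of -0.29 ± 0.22 and -0.25 ± 0.27 and did not pass.

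Further falls were called for single genes. Sod3, an extracellular superoxide dismutase, had 59.2, 45.5, 53.1 and 46.9 CPM in the controls and 23.2 and 22.7 CPM in the knockdown (log2 -1.16 ± 0.15, edgeR adjusted p = 0.00379). Xrp1, a transcription factor that responds to DNA damage and ribosome defects, had 29.4 to 34.9 CPM and 16.1 and 16 CPM (log2 -0.96 ± 0.16, edgeR adjusted p = 0.0153), and was the only 1 of 21 tested genes on the stress and JNK list to pass. The call for Xrp1 was lost without control 2, and its change against the main controls was 0.12. Megalin (mgl), an endocytic receptor, fell by 0.91 ± 0.18 on the log2 scale, a call lost without knockdown library 1 or control 1. FER, a tyrosine kinase, and tolkin (tok), a protease of BMP signalling, are named after their values were seen, at log2 -1.13 ± 0.14 and -0.72 ± 0.10.

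Of the 5 noncoding genes that passed, 4 fell. snRNA:U2:34ABa, a copy of the spliceosomal U2 RNA, fell from 31.8, 73.9, 50.6 and 54.7 CPM to 2.68 and 4.09 CPM (log2 -3.92 ± 0.36, edgeR adjusted p = 4.0e-04). It also fell without Enok (-2.84 ± 0.34), HDAC1 (-3.37 ± 0.26) and HDAC3 (-3.42 ± 0.27), and its HDAC6 effect did not differ from these by the threshold. Copies of U2 are nearly identical, so its counts are uncertain. The others were snoRNA:Tudor-SN-a (-1.86), scaRNA:MeU5-C46 (-1.82) and lncRNA:CR46003 (-1.27), while asRNA:CR45126, which shares a fraction of 0.597 of its exons with another gene, rose by log2 1.32.

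Lists of genes tied to the known functions of HDAC6 had few calls, as did all genes tested (1.42% by edgeR). A short list without a call is therefore not set apart from other genes. Over all genes tested 15.2% had an unadjusted p under 0.05. None of 6 tested tubulin genes passed by edgeR or DESeq2, and 1 had an unadjusted p under 0.05. alphaTub84B, the main alpha-tubulin, measured 3963, 3578, 3772 and 3763 CPM in the controls and 3520 and 3847 CPM in the knockdown, a log2 change of -0.03 ± 0.08. The maternal alphaTub67C was lower in both knockdown libraries than in any control, at 10.7 and 14.8 CPM against 17.4 to 22.1, but did not pass (log2 -0.59 ± 0.21, edgeR adjusted p = 0.213). Of 20 microtubule regulators none passed by either tool, with 4 at an unadjusted p under 0.05. Atat, the tubulin acetyltransferase, had a log2 change of 0.16 ± 0.26, and Sirt2, the other tubulin deacetylase known from mammals, one of -0.18 ± 0.23. CLIP-190, a linker of microtubule ends, had 18.9 to 20.4 CPM in the controls and 28.9 and 27.4 CPM in the knockdown without passing (log2 0.52 ± 0.14, edgeR adjusted p = 0.118). None of 21 motor and dynactin genes passed by either tool, with 1 at an unadjusted p under 0.05 and changes between -0.54 and 0.28.

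Among genes of protein quality control, none of 16 aggresome and ubiquitin genes, 20 autophagy genes or 31 proteasome genes passed by edgeR. Their list medians were 0.01, 0.01 and 0.11 on the log2 scale. Of the 3 lists 2, 5 and 4 genes had an unadjusted p under 0.05, against 15.2% of all genes tested. ref(2)P, the fly p62 that links ubiquitinated protein to autophagy, had 231 to 318 CPM in the controls and 438 and 339 CPM in the knockdown without passing (log2 0.55 ± 0.14, edgeR adjusted p = 0.0834), and was the only 1 of the 3 lists that DESeq2 called. Among 9 inducible heat shock genes Hsp70Bb rose and Hsp23 fell. Hsp23, a small heat shock protein, had 263, 308, 283 and 292 CPM in the controls and 207 and 190 CPM in the knockdown (log2 -0.53 ± 0.10, edgeR adjusted p = 0.0244). Of 15 constitutive chaperones only Cdc37, a cofactor of Hsp90, passed, with 164 to 186 CPM in the controls and 251 and 236 CPM in the knockdown (log2 0.48 ± 0.09). Hsp83, the fly Hsp90, had a log2 change of -0.36 ± 0.12 and did not pass. The calls of Hsp23 and Cdc37 were each lost in several fits that left out 1 library: Hsp23 without knockdown library 2 or control 2 or 4, and Cdc37 without knockdown library 1 or control 1, 2 or 4.

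Of 16 tested deacetylases and corepressors only HDAC6 itself passed, and DESeq2 called HDAC4 besides. HDAC1 had 700, 652, 661 and 676 CPM in the controls and 660 and 723 CPM in the knockdown (log2 0.04 ± 0.08). HDAC4 was lower in both knockdown libraries, at 39.9 and 38.1 CPM against 54.2 to 64.7, without passing (log2 -0.60 ± 0.17, edgeR adjusted p = 0.121). Among 22 acetyltransferases and their partners, mof rose and no gene fell. mof, the enzyme that acetylates lysine 16 of histone H4 in dosage compensation, had 323, 291, 258 and 272 CPM in the controls and 492 and 471 CPM in the knockdown (log2 0.75 ± 0.10, edgeR adjusted p = 0.00476), and it passed whichever library was left out. Gcn5 had a log2 change of 0.33 ± 0.09 and enok one of -0.21 ± 0.13, and neither passed.

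The patterning genes of the blastoderm were not called by edgeR, against 1.42% of all genes tested, a share at which such short lists are not set apart. Along the head to tail axis, none passed of 14 gap genes, 12 pair-rule genes, 9 segment polarity genes and 9 homeotic genes, with 1, 0, 1 and 3 at an unadjusted p under 0.05 and none called by DESeq2. Across the back to belly axis, none passed of 18 mesoderm, 16 neuroectoderm and 18 dorsal ectoderm genes, and DESeq2 called 1, 0 and 3. An unadjusted p under 0.05 was found for 6 of 18, 3 of 16 and 7 of 18 of them. For mesoderm and dorsal ectoderm these shares are above the 15.2% of all genes tested. Negative changes were fitted for 16 of the mesoderm, 15 of the neuroectoderm and 13 of the dorsal ectoderm genes. So they were for 8 of 14 gap, 8 of 12 pair-rule, 9 of 9 segment polarity and 6 of 9 homeotic genes. The list medians ran from -0.41 (homeotic) to -0.05 (gap) on the log2 scale. Against the main controls they turned higher, to 1.22 for homeotic, 0.94 for segment polarity, 0.8 for mesoderm, 0.71 for dorsal ectoderm and 0.58 for neuroectoderm genes. The lowest medians were in knockdown library 1: its homeotic median was -0.87 and its segment polarity median -0.65, against 0.07 and 0.01 in library 2. engrailed (en), a segment polarity gene, showed the same, with 6.30 CPM in library 1 and 16.8 in library 2 against 12.7 to 22.6 in the controls. Antp, a homeotic gene, had 67.4 and 117 CPM against 109 to 143, and shares a fraction of 0.501 of its exons with another gene. Kr, a gap gene, had 271 and 254 CPM against 267 to 291 in the controls.

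The lists of maternal axis genes and maternal regulators also divided the knockdown libraries. Of 20 maternal axis genes and 21 maternal regulators none passed by edgeR, and DESeq2 called 0 and 2. An unadjusted p under 0.05 was found for 3 and 4, against 15.2% of all genes tested. The medians of these 2 lists were 0.29 and 0.26 in knockdown library 1 and -0.09 and -0.01 in library 2. Over the 1857 tested genes that fell by stage 5 in the main controls (the cleared genes below), the order was reversed. Their median was -0.11 in library 1 and 0.07 in library 2. bicoid (bcd), the anterior determinant, had 20.0 CPM in library 1 and 4.73 in library 2, against 3.27 to 5.96 in the controls (log2 1.23 ± 0.45, edgeR adjusted p = 0.224). Ribosomal protein genes also divided the libraries, with a median of 0.19 in library 1 and -0.45 in library 2 over 82 genes, none of which passed by either tool (3 at an unadjusted p under 0.05). Among 24 germ plasm and piRNA genes piwi, the nuclear Argonaute that uses piRNAs, was the only 1 to pass. It had 23.8, 20.7, 22.7 and 22.6 CPM in the controls and 41.4 and 38.7 CPM in the knockdown (log2 0.84 ± 0.14, edgeR adjusted p = 0.0156), a call lost without control 2, and its change against the main controls was -0.24.

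Lists taken from the stage comparison of the main controls, libraries that this comparison does not use, covered most of the transcriptome. Of 780 tested zygotic genes (silent at stage 2 and rising by stage 5) 1 rose and 17 fell, a share of 2.31% called against 1.42% of all genes, and their median was -0.25. The median was -0.30 in knockdown library 1 and -0.17 in library 2, against -0.12 to 0.08 in single controls. Of 554 maternal-zygotic genes 5 rose and 4 fell, of 1857 cleared genes 7 rose and 2 fell, and of 1946 stable genes 21 rose and 12 fell, with medians of -0.10, -0.01 and 0.06. The lower zygotic median depended on the controls, since against the 3 main controls it was 0.46, and what part the age of the embryos has in it was not tested.

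**Figure D4:**
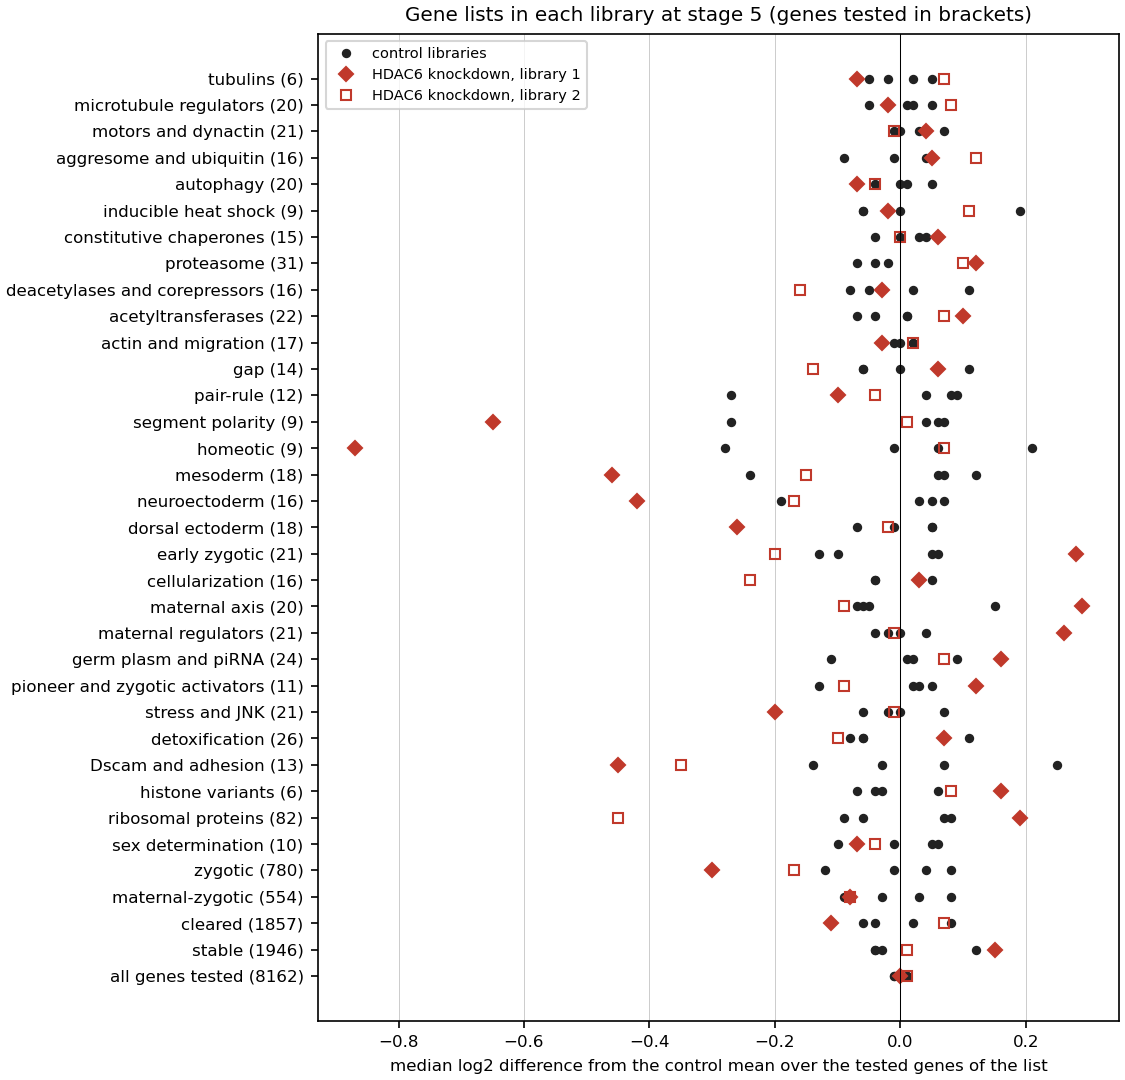
Median log2 difference from the control mean over the tested genes of each list (horizontal axis), in each control library (black circles) and in knockdown libraries 1 (filled diamonds) and 2 (open squares), with the number of genes tested in brackets. Tubulin, motor and proteasome lists lie near 0 in both knockdown libraries. The homeotic, segment polarity, maternal axis, maternal regulator and ribosomal protein lists separate library 1 from library 2.

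Markers of other cells were measured beside these results. Pole cell markers (vas, nanos, pgc, gcl and osk) summed to 183 and 141 CPM in the knockdown and 126 to 146 in the controls. Differentiated neuron markers summed to 177 and 200 CPM against 200 to 247, and nearly all of this was elav. Muscle markers summed to 14.5 and 12.9 CPM against 13.2 to 23.1. Follicle cell markers of the mother summed to at most 0.67 CPM in the knockdown and 2.58 in the controls, with 4 of 10 at 0 in all 6 libraries, and testis markers to at most 0.558 CPM in any library. The calls were spread over the chromosomes: between 1.09% (X) and 1.76% (2R) of tested genes passed on the 5 large arms. On chromosome 4 the number was 3 of 85, and on the Y 1 of 4, the gene FDY. FDY had at most 0.516 CPM in a control and 2.41 and 2.49 CPM in the HDAC6 knockdown. In the Enok knockdown it was at a like level, with 2.76 and 2.35 CPM.

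Many of the stage 5 changes were already present at stage 2. At stage 2, with 2 knockdown and 3 control libraries of the same set, 212 of 6702 genes passed (3.16%), 168 higher (2.51%) and 44 lower (0.657%). Of 6545 genes tested at both stages, 93 passed at stage 5 and 205 at stage 2, and 51 passed at both, which is 54.8% of the first list and 24.9% of the second. In the same direction were 49 of the 51, 41 higher and 8 lower. The stage 2 count was 57 without its knockdown library 1 and 132 without library 2. Control libraries of one stage were not used at the other, but the lines were the same at both.

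Arc1 stood at 2.87, 2.93 and 1.28 CPM in stage 2 controls and at 38.5 and 43.5 CPM in the stage 2 knockdown (log2 4.13 ± 0.25), so its rise was of like size at both stages. Dscam4 had no count in any stage 2 control and 15.4 and 17.8 CPM in the knockdown, at least 131-fold higher (floor of 3 counts over the group). Cyp6d4 (log2 1.65 ± 0.14), mof (0.73), GstT3 (1.11) and c(3)G (1.15) also rose at stage 2, and the ABC transporter gene FBgn0010549 (-6.07 ± 0.71), nolo (-2.80 ± 0.29), mgl (-1.82 ± 0.23) and Hsp23 (-0.56) fell. At stage 2 the log2 changes of Sod3 (-0.16 ± 0.10), CG30159 (0.10 ± 0.09), piwi (0.06 ± 0.09) and kek1 (-0.02 ± 0.67) did not pass. For piwi and kek1 the difference between stages, 0.80 ± 0.16 and -1.91 ± 0.71, did not pass either (edgeR adjusted p = 0.0504 and 0.447), and kek1 was at most 2.44 CPM in any stage 2 library of control or HDAC6 knockdown.

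**Figure D5:**
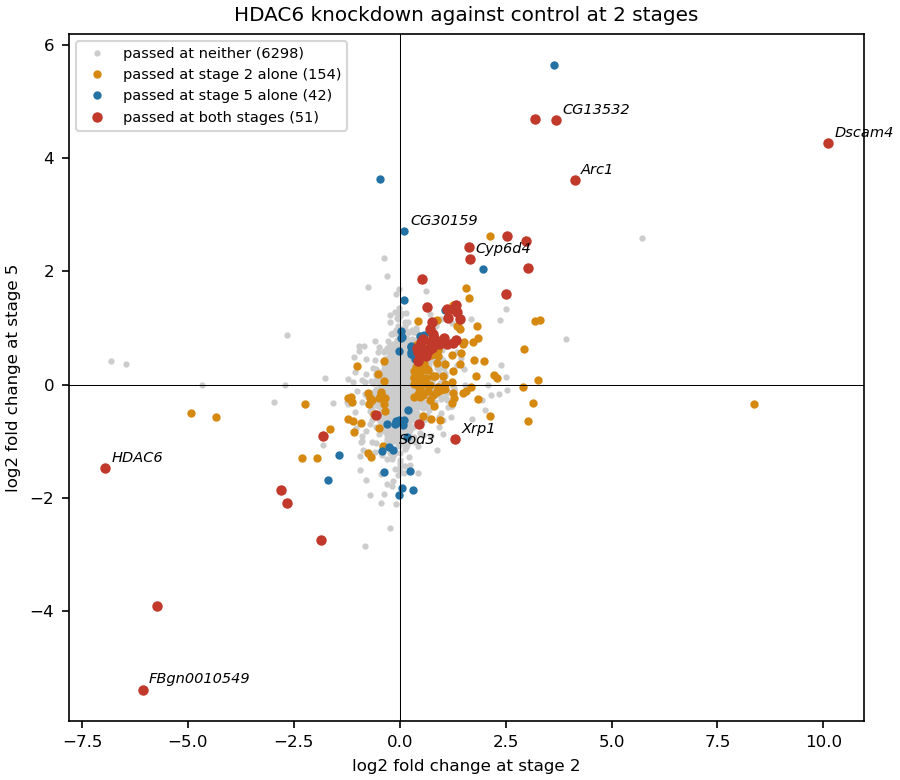
Log2 fold change of HDAC6 knockdown over control at stage 5 (vertical axis) against that at stage 2 (horizontal axis) for 6545 genes tested at both stages, coloured by the stage at which each gene passed. The 51 genes that passed at both stages (red) lie mostly in the upper right, with HDAC6 and FBgn0010549 in the lower left and Xrp1 on opposite sides at the 2 stages. The stage 2 value of Dscam4, which had no count in the controls, depends on the small prior added to counts.

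The effect differed between stages for 20 of 8338 genes in a test of the difference itself (0.24%), 7 with a higher (0.084%) and 13 with a lower effect (0.156%) at stage 5. Xrp1 went from a rise at stage 2, 4.72, 4.78 and 3.61 CPM in controls against 12.3 and 9.30 CPM (log2 1.31 ± 0.24), to its fall at stage 5, a difference of -2.25 ± 0.27 (edgeR adjusted p = 6.4e-04). Sod3 passed at stage 5 and not at stage 2 (difference -0.99 ± 0.16, edgeR adjusted p = 0.0149), and so did CG30159 (difference 2.64 ± 0.18, edgeR adjusted p = 7.2e-07). Egfr, the epidermal growth factor receptor, stood at 0.109 to 0.349 CPM in stage 2 controls and 1.61 and 2.33 CPM in the stage 2 knockdown, and at 623 to 738 CPM and 523 and 527 CPM at stage 5. neuromusculin (nrm), a further immunoglobulin adhesion protein, was nearly absent from the stage 2 knockdown, at 1.02 and 0 CPM against 10.1 to 26.3, and had 37.4 and 53.3 CPM against 63 to 65.6 at stage 5. The number of such genes was 189 without stage 5 knockdown library 1 and 99 without library 2.

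The Enok knockdown used the same 4 controls, so effects against control in both knockdowns share them, and the knockdowns were compared directly. Enok is a lysine acetyltransferase of histone H3. Between the knockdowns 59 of 8162 genes differed (0.723%), 49 higher (0.6%) and 10 lower (0.123%) without HDAC6, and without HDAC6 knockdown library 1 the number was 363. Of the 116 genes called against control, 15 differed directly, and 12 of the 15 were rises that stood higher without HDAC6. Most of the 59 were thus not called in the HDAC6 knockdown itself, and a difference can come from a change without Enok. For example, enok itself was among the 49, at log2 -2.21 ± 0.15 without Enok and -0.21 ± 0.13 without HDAC6. A p that misses the threshold does not show that the knockdowns acted alike on the other 101 of the 116.

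Cyp6d4 stood far apart in the knockdowns, at 79.0 and 45 CPM without HDAC6 and 7.58 and 4.23 CPM without Enok, a log2 difference of 3.46 ± 0.33 (edgeR adjusted p = 7.4e-04). CG13532, with 1.84 and 1.29 CPM without Enok, had a log2 difference of 5.98. On the common scale at stage 5 CG13532 had 92.7 CPM without HDAC6, 30.2 without Gcn5, 28.3 without HDAC1, and 31.7 and 34.9 in the Nejire rescues. It had 9.51 CPM without Nejire, 2.09 without HDAC3, under 1 in the Gcn5 rescues, and 4.37 and 3.35 in the batch1 and main controls. exp had 0.919 and 0 CPM without Enok, and its difference was 4.68 ± 0.86 (edgeR adjusted p = 0.0324). Sod3 was at 50.5 and 48.7 CPM without Enok, as in the controls, and lower by 1.11 ± 0.17 on the log2 scale without HDAC6 (edgeR adjusted p = 0.0101). Against the main controls Sod3 also fell without HDAC1 (-0.73 ± 0.14, edgeR adjusted p = 1.5e-04), while its change without HDAC3 (-0.25 ± 0.14) did not pass. GstE11, PolD2, LManII and vari were also higher without HDAC6 than without Enok, by log2 2.08, 1.94, 1.54 and 0.78. Against control, GstE11 and LManII also fell without Enok (-1.22 ± 0.21 and -0.81 ± 0.10). The changes of PolD2 and vari without Enok (-0.44 ± 0.34 and 0.21 ± 0.11) did not pass. Dscam4, with 36.5 and 34.0 CPM without Enok, mof with 486 and 456, c(3)G with 44.1 and 49.0 and Xrp1 with 19.1 and 15.6 had differences of -0.15 ± 0.21, 0.03 ± 0.12, -0.20 ± 0.23 and -0.10 ± 0.19 that did not pass. Other leading rises were also high without Enok. Hsp70Bb had 20.7 and 24.1 CPM there (difference -0.81 ± 0.45, edgeR adjusted p = 0.644), Arc1 had 22.5 and 18.2 CPM (0.86 ± 0.32, edgeR adjusted p = 0.398), and y had 16.8 and 28.7 CPM (0.51 ± 0.34, edgeR adjusted p = 0.72).

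The nuclear deacetylases HDAC1 and HDAC3 had been knocked down in the main set, with other control libraries, so the differences of effects were tested. The HDAC6 effect differed from that of HDAC1 for 3921 of 8596 genes (45.6%, with 23.2% higher and 22.5% lower). It differed from that of HDAC3 for 1818 (21.1%, with 12.8% higher and 8.31% lower), or 1136 without HDAC6 knockdown library 1. Of the 116 HDAC6 calls, 81 differed from the HDAC1 effect and 52 from the HDAC3 effect. Against the main controls 54.1% of genes passed in the HDAC1 knockdown and 34.0% in the HDAC3 knockdown, where knockdown and line cannot be told apart. The HDAC6 knockdown had 2196 calls (1020 higher and 1176 lower) against these same controls, which belong to another set than its own. They held 67 of the 116 calls made against its own controls, in the same direction. Of the 116 HDAC6 calls, 54 (46.6%) were called in the same direction without HDAC3 and 10 (8.62%) in the opposite one. Without HDAC1 the numbers were 38 (32.8%) and 41 (35.3%). These shares stand beside 14.2% of genes higher and 19.8% lower without HDAC3, and 26.4% and 27.7% without HDAC1.

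Genes of the HDAC6 comparison fell on both sides in that test. Dscam4 and nolo moved the same way in all 3 knockdowns: the HDAC1 and HDAC3 effects were 5.50 ± 0.32 and 5.52 ± 0.32 for Dscam4 and -2.78 ± 0.29 and -3.69 ± 0.32 for nolo. For Dscam4 the HDAC6 effect minus the HDAC1 effect was -1.23 ± 0.48 (edgeR adjusted p = 0.0429) and minus the HDAC3 effect -1.25 ± 0.49 (edgeR adjusted p = 0.0919). On the common scale its level was 30.7 CPM without HDAC6, 28.1 without HDAC1 and 28.9 without HDAC3, while the controls of the sets had 1.69 and 0.642 CPM. For nolo the difference was 0.90 ± 0.39 from HDAC1, which did not pass, and 1.81 ± 0.42 from HDAC3 (edgeR adjusted p = 0.0665 and 0.00466). Against the main controls Cyp6d4 was lower without HDAC1 (-0.99 ± 0.27) and HDAC3 (-1.22 ± 0.28). Its HDAC6 effect stood above both by 3.20 ± 0.38 and 3.43 ± 0.39 (edgeR adjusted p = 1.8e-06 and 7.1e-06). On the common scale Cyp6d4 had 60.1 CPM without HDAC6, 19.5 without HDAC1 and 16.9 without HDAC3. The control sets differed, with 12.9 CPM in batch1 and 37.4 in the main set. It was also high without Nejire (187 CPM) and in the rescues (74.1 to 115 CPM), but not without Gcn5 (8.98 CPM). Rab32 and bcd were high in HDAC6 knockdown library 1. Without HDAC1 they were lower than in the main controls, by 4.03 ± 0.38 and 4.11 ± 0.42 on the log2 scale. The control sets themselves differed for Rab32, with 113 CPM in the main and 8.58 CPM in the batch1 controls on the common scale, against 6.69 CPM without HDAC1. kek1 fell without HDAC1 (-1.47 ± 0.30) and rose without HDAC3 (2.00 ± 0.26), a difference of -3.96 ± 0.40 from HDAC3 (edgeR adjusted p = 2.4e-06) and of -0.48 ± 0.43 from HDAC1 that did not pass.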

How the data were processed

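Total RNA had been sequenced from pools of 20 embryos. As deposited by the authors, 1 table holds unnormalised counts for FlyBase genes in 56 total RNA libraries. The submitters' processing notes name bcl2fastq 2.20.0.422 and build dm6. The aligner, the counter and whether strand was used are not given in these sources. Of 17753 genes, 17626 (99.3%) matched Ensembl release 115, which gave names and coordinates. Nuclear libraries were not used.

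Counts were filtered with filterByExpr (10 counts, 15 in total), scaled by TMM and compared in R 4.3.3 with edgeR 4.0.16 (quasi-likelihood F test, Benjamini-Hochberg over all genes tested, adjusted p under 0.05). Controls, Enok and HDAC6 knockdowns of batch1 were fitted together at each stage, all 6 batch1 groups for the stage difference, and 8 stage 5 groups for differences from HDAC1 and HDAC3. The standard error is the absolute log2 change divided by the square root of F. Each p-value sets a group difference against the spread between libraries, which may be technical. That spread was estimated over all groups of a fit, with information shared across genes. The rule for named genes took HDAC6, the 12 largest rises and falls with at least 5 CPM and no overlap between groups, the 3 lowest p per list, a fixed panel and leading genes of the other comparisons. The members, lists and rule were chosen with earlier results of these data known. Zygotic genes were under 1 CPM at stage 2 and rose by at least 3 log2 units in the main controls, maternal-zygotic ones had at least 1 CPM there and rose by at least 1, cleared ones fell by at least 1, and stable ones changed by under 0.5 at 5 CPM or more. Eggshell and yolk genes did not pass the filter. The immune list (5 tested), actin and migration (17), early zygotic (21), cellularization (16), pioneer (11), histone variants (6), sex determination (10), late neural (4), late muscle (6) and testis (2) lists had no edgeR call, with 3, 1, 3, 2, 2, 0, 2, 2, 2 and 0 genes at an unadjusted p under 0.05 in that order and 1, 0, 1, 0, 0, 0, 1, 0, 0 and 0 called by DESeq2. Over all genes tested 15.2% had an unadjusted p under 0.05. Alternatives were RLE scaling, scaling to stable genes, no filter, the 2 groups alone, replicate blocks, DESeq2 1.42.0, other controls and each library left out. On simulated counts of 7984 genes for the stage 5 comparison, rises of 1 and 2 log2 units were recovered in 72% and 94% and falls in 64% and 90%. The shallowest library of the comparison had 3.57 M counts, which limits genes of low level.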

Additional observations from a re-analysis of the deposited data

Results flagged for a closer look

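In the 4 stage 5 controls, 1 library stood apart from the other 3 by Dixon's criterion (the gap to the next library over the whole range) for 4 of 160 named genes, where chance flags about 1 in 20 groups. The ratio was 0.831 for Act87E (13.2 CPM in the lowest control, 19.1 in the next), 0.862 for ry (153 and 209 CPM), 0.857 for Septin1 (359 and 389 CPM) and 0.882 for corolla (18.2 CPM in the highest control, 11.5 in the next).

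The HDAC6 knockdown effect differed between stages, by the test of the difference, for 12 named genes. The stage 5 effect was above that at stage 2 on the log2 scale for HDAC6 (5.51), nrm (4.43), mthl3 (3.76), wake (1) and eIF6 (0.95). It was below for Drat (-8.59), Dscam4 (-5.7), Egfr (-3.45), Xrp1 (-2.25), l(3)neo38 (-1.63), btsz (-1.17) and Sod3 (-0.99). The fitted values of Drat and Dscam4 depend on the small prior added to counts, since both had no count in stage 2 controls, and are no bounds. At stage 2 Drat was at least 39.2-fold and Dscam4 at least 131-fold higher in the knockdown (floor of 3 counts over the group). No cause of these differences was tested.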

How the results depend on the processing

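The HDAC6 transcript fell under all 16 alternatives, by 1.33 to 1.64 on the log2 scale when single libraries were left out. The count of 116 genes became 112 with RLE, 120 scaled to stable genes and 98 with a block by library-name number. It moved to 549 without a filter, 76 with both groups alone, 282 with DESeq2, 19 and 27 with Ctrl-KD or CtrlAc-KD controls alone, and 2196 against the main controls, and ranged from 46 to 344 without single libraries. With a replicate block by title number it was 15, but numbers did not pair the libraries (correlation of deviations -0.148 between HDAC6 knockdown and control, 0.0257 between HDAC6 and Enok knockdowns). The number of genes that differed from the Enok knockdown (59) was 210 without a filter, 124 with DESeq2, 18 with the block and 51 to 363 without 1 HDAC6 knockdown library. That at stage 2 (212) was 370 without a filter and 57 to 132 without 1 HDAC6 knockdown library. That of the stage difference (20) was 139 without a filter, 83 with DESeq2, 12 with the block and 99 to 189 without 1 stage 5 HDAC6 knockdown library. Differences from HDAC1 and HDAC3 ranged over 3262 to 3752 and 1136 to 1856 in the same way. For these 5 counts no control or other knockdown library was left out. The cause of these moves was not tested, beyond the fewer libraries or other genes that some fits held.

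Against the main controls 6 named calls changed sign: ct (0.09), piwi (-0.24), DIP-theta (0.14), mfas (0.42), Xrp1 (0.12) and Rab32 (-1.84). Named genes that were not called passed there with the opposite sign: higher were abd-A (0.88), Act87E (1.43), en (1.76), fkh (0.77), nkd (0.89), opa (0.8), peb (0.78), ry (0.56), sog (0.62), ptc (0.73), ush (1.02), drm (0.96), SoxN (0.96), ths (0.8), elav (1.01), Antp (1.18), bru2 (2.1), l(3)neo38 (0.96), wake (0.49) and wg (0.94), and lower were bcd (-2.82), gd (-0.91), twe (-2.39), spir (-1.31), Ubi-p63E (-1.24), zen (-1.22), me31B (-0.46), msl-1 (-0.58), CLIP-190 (-1.19), Clamp (-0.82), hoe1 (-3.02) and grp (-0.7). These libraries belong to another set, and set and knockdown cannot be told apart in that fit.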
